A study of Mus musculus with 7 samples.

Results

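The sodium-potassium ATPase (Na,K-ATPase, the sodium pump) genes described here are Atp1b1, Atp1b2 and Atp1b3, which encode beta subunits, and Fxyd1, Fxyd2, Fxyd6 and Fxyd7, which encode regulators of the pump. They were taken by name, as 7 of the 50226 gene names in the deposited table. RNA-Seq was performed on skeletal muscle, on brown (BAT), subcutaneous (SCAT) and visceral (VAT) adipose tissue, and on cortex, kidney and liver. The labels describe all 7 samples alike as wild-type C57BL/6 mice, 36 weeks of age, on the diet NCD, without a treatment. Each tissue has 1 library of rRNA-depleted RNA, so no difference between tissues has a replicate check, no test was made and no error can be given. Whether a library came from 1 animal or from several is not given in the sources used here. Values are FPKM, fragment numbers scaled to the length of the transcript and the size of the library, and the depth behind them is unknown because the table gives no counts. Orders of tissues, and neighbours in them called close (under 2-fold apart), refer to the FPKM as deposited. The scaling of the libraries bears on them, and values after scaling to an equal upper quartile of the values above 0 are given beside the main results it changes.

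The Na,K-ATPase exports sodium and imports potassium across the plasma membrane at the cost of ATP, and the gradients it builds drive epithelial transport, membrane potentials and cell volume control. It combines a catalytic subunit with a beta subunit and, in many tissues, an FXYD protein. The beta subunit is a glycoprotein needed for folding and delivery of the pump to the plasma membrane. FXYD proteins are small membrane proteins with a single transmembrane segment that associate with the pump and adjust its affinity for ions. They are named after a sequence motif of phenylalanine, any residue, tyrosine and aspartate.

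The coding bases around this motif are shown because they define the FXYD genes and show how far their transcripts differ. Each stretch of 30 bases was read 5′ to 3′ from a GENCODE M21 transcript, and capitals mark the codons of the motif.
Fxyd1: ccggatccaTTCACCTACGATtaccacacc
Fxyd2: gagaatcccTTCGAGTACGACtatgaaacc
Fxyd6: aaggatcctTTCTATTACGACtaccagacc
Fxyd7: acagatcctTTTTTCTATGACtatgccact
In GRCm38 the stretches lie at chr7:31053464-31053911 (Fxyd1, minus strand), chr9:45408126-45408310 (Fxyd2, plus strand), chr9:45390654-45390787 (Fxyd6, plus strand) and chr7:31045017-31047391 (Fxyd7, minus strand). All 4 are coding sequence that an intron interrupts, from exon 3 to 4 in Fxyd1 and Fxyd6 and from exon 2 to 3 in Fxyd2 and Fxyd7. Between pairs of these genes, 17 (Fxyd2 and Fxyd7) to 22 of the 30 bases were the same. The longest exact run shared by any annotated transcripts of 2 of the 7 genes was 31 bases, between Fxyd2 and Fxyd6, against reads of 101 bases. The other 20 pairs shared at most 19 bases.

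The genes fall into clusters. Fxyd6 (chr9:45370185-45396159) and Fxyd2 (chr9:45399669-45410278) follow each other on the plus strand, 3509 bases apart. Fxyd5 (chr7:31032722-31042481), Fxyd7 (chr7:31042513-31051467) and Fxyd1 (chr7:31051678-31057199) follow each other on the minus strand, with 31 and 210 bases between them. The table merges Fxyd5 and Fxyd7 into 1 locus that carries both names, so its FPKM cannot be told apart between them and is called the Fxyd5/Fxyd7 locus below. The beta subunit genes lie apart, Atp1b1 at chr1:164437109-164458355, Atp1b2 at chr11:69599736-69605942 and Atp1b3 at chr9:96332655-96364442, all on the minus strand.

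The promoters of Atp1b1 and Atp1b3 are shown because these genes held the largest share of beta subunit FPKM in every tissue. Each run gives the 100 bases before and 50 bases after the RefSeq start (GRCm38.p6, minus strand), at chr1:164458306-164458455 and chr9:96364382-96364531, with the TATA box (TATAAA, or in its other form TATATA), the CCAAT box and the GC box (GGGCGG), on either strand, in capitals.
Atp1b1: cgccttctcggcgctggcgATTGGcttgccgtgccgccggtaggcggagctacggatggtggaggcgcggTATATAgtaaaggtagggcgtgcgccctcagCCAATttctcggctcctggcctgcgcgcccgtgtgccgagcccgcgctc
Atp1b3: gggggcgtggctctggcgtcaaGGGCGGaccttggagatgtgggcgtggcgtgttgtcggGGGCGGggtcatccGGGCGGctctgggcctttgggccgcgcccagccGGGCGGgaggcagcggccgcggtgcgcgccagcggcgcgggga
Over the 300 bases from 250 before to 50 after the start, the Atp1b1 promoter held 1 TATA box, 2 CCAAT boxes and 2 GC boxes, and the Atp1b3 promoter held 6 GC boxes and neither of the others. Of 32851 mouse promoters of this length, 17.1% held a TATA box, 37.4% a CCAAT box and 35.7% a GC box. Both promoters were rich in GC, with 71.0% and 76.0% against a median of 52.7%. RefSeq lists a second Atp1b3 start, whose promoter (chr9:96363666-96363965) held 0 of these motifs. A promoter entry was also found for Fxyd1 and Fxyd6, but not for Atp1b2, Fxyd2 and Fxyd7.

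Each of the 3 beta subunits had its own order of tissues, with Atp1b1 highest in kidney and cortex, Atp1b2 in muscle and cortex, and Atp1b3 in BAT. Atp1b1, the beta subunit of most epithelia and a main one in neurons, had an FPKM of 306 in kidney, 214 in cortex, 46.2 in muscle, 9.40 in liver, 8.24 in VAT, 7.14 in BAT and 2.88 in SCAT. Kidney and cortex were close, and muscle followed 4.64-fold below cortex, or 9.39-fold after scaling to an equal upper quartile. Liver, VAT and BAT were again close to each other as deposited, but VAT had 15.4 and BAT 5.05 after that scaling. SCAT was lowest, 106-fold below kidney. In bulk tissue, fewer cells of a type and less RNA per cell cannot be told apart.

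Atp1b2 encodes a beta subunit first known as an adhesion molecule on glia. Its FPKM was 11.9 in muscle, 8.92 in cortex, 1.24 in kidney, 0.681 in BAT, 0.617 in VAT, 0.265 in SCAT and 0.0962 in liver. Muscle and cortex were close, with cortex the higher after scaling to an equal upper quartile, and cortex was 7.22-fold above kidney. As deposited, kidney, BAT and VAT were each close to the next, VAT was 2.33-fold above SCAT and SCAT 2.75-fold above liver, and only muscle, cortex and kidney reached 1 FPKM. After that scaling VAT had 1.16 FPKM and passed kidney, and kidney was more than 2-fold above BAT. In muscle all 5 neuron markers lay under 1 FPKM, with a summed FPKM of 0.223 against 519 in cortex. Of the 4 astrocyte markers, 2 reached 1 FPKM in muscle, Aqp4 with 15.1 against 31.4 in cortex and Aldh1l1 with 3.14 against 8.04. Gfap was listed at 0 in muscle, and Aldh1l1 was lowest in muscle and highest in liver, at 144. The 4 markers summed to 18.6 in muscle against 163 in cortex, but also to 152 in liver and 110 in kidney. The markers of Schwann cells, the glia of peripheral nerves, summed to 18.6 in muscle and to 1.71 to 11.9 in the other tissues, and the part of any of these cells in the muscle value was not tested.

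Atp1b3, a beta subunit found in many tissues, was the most even of the 7. It had 31.4 FPKM in BAT, 11.9 in SCAT, 11.1 in kidney, 10.2 in cortex, 9.88 in VAT, 8.88 in muscle and 5.41 in liver. BAT stood 2.64-fold above SCAT and 3.18-fold above VAT, but 1.42-fold and 1.20-fold after scaling to an equal upper quartile, and as deposited from SCAT down to liver every tissue was close to the next. Its log2 range from the highest to the lowest tissue was 2.51, below the median of 2.99 over the 14928 expressed protein-coding genes, those that reached 1 FPKM in any tissue.

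Fxyd1 and Fxyd2 reached the highest levels among the FXYD genes, and Fxyd1 was lowest in kidney, where Fxyd2 was highest. Fxyd1 encodes phospholemman, a phosphorylation-controlled pump regulator of heart and skeletal muscle. It had 448 FPKM in muscle, 250 in liver, 195 in BAT, 67.6 in VAT, 42.0 in SCAT, 21.8 in cortex and 6.00 in kidney. As deposited, muscle, liver and BAT were each close to the next, as were VAT, SCAT and cortex, and kidney was lowest. The step between BAT and VAT was lost after scaling to an equal upper quartile, with 138.0 FPKM in BAT and 126.5 in VAT. SCAT, at 55.2, and cortex, at 25.9, were then each more than 2-fold below the tissue before. The level in muscle was 74.7-fold above kidney, or 49.4-fold after that scaling, and that in liver 41.7-fold or 44.1-fold.

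Levels of muscle and liver markers in BAT and VAT are set beside Fxyd1. Ckm, the creatine kinase of muscle, had 166 FPKM in BAT, or 1.93% of its 8592 in muscle, and Fxyd1 in BAT was 43.6% of its muscle level. Apoa1, an apolipoprotein made by liver, was in VAT at 0.701% of its liver level and Ttr, another plasma protein gene, at 0.850%, and Fxyd1 in VAT was 27.0% of its liver level. After scaling to an equal upper quartile, Fxyd1 in VAT was 0.540 of its liver level. Alb, the liver's serum albumin, had 253 FPKM in VAT and Myh4, a fast muscle myosin, 87.5 in BAT, but neither has a value in its own tissue to compare with. The part of muscle or liver RNA in the Fxyd1 levels of BAT and VAT was not tested. Within adipose tissue, Fxyd1 was 2.89-fold higher in BAT than in VAT and 4.65-fold higher than in SCAT, or 1.09-fold and 2.50-fold after scaling to an equal upper quartile.

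Fxyd2 encodes the gamma subunit, the FXYD regulator of the kidney tubule. It had 846 FPKM in kidney, 3.55 in VAT, 2.57 in SCAT, 2.00 in muscle, 1.23 in BAT, 1.09 in cortex and 0.282 in liver. Kidney was 239-fold above VAT, or 113-fold after scaling to an equal upper quartile, and as deposited each tissue from VAT down to cortex was close to the next. After that scaling the order below SCAT was cortex, muscle and BAT, and cortex, at 1.29 FPKM, was more than 2-fold below SCAT, at 3.38. The kidney library held all 3 proximal tubule and all 6 distal nephron markers at 1 FPKM or more, so the level cannot be assigned to a single stretch of the tubule. In VAT, Fxyd2 stood at 0.419% of its kidney level. Of these 9 markers, 4 stood above that share in VAT, with Lrp2 at 1.90%, Slc5a2 at 1.68%, Aqp2 at 0.449% and Scnn1b at 8.93%. The other 5 stood below that share, Umod at 0.0198% among them. Scnn1b and Slc5a2 were no higher in VAT, at 0.532 and 1.35 FPKM, than in BAT, at 0.890 and 1.62. Lrp2, at 4.21 in VAT, was at most 0.178 in the other tissues outside kidney, and Aqp2, at 0.198, at most 0.155. The proximal tubule markers summed to 5.60 FPKM in VAT, against 0.799 to 2.98 in those tissues. In VAT 2 of the 3 reached 1 FPKM, and the part of these markers in the VAT level of Fxyd2 was not tested.

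Fxyd6 encodes phosphohippolin, a regulator known from the brain. Its FPKM was 22.2 in cortex, 20.9 in muscle, 3.14 in VAT, 2.59 in BAT, 2.44 in SCAT, 0.806 in kidney and 0.254 in liver. These values are those of a locus that appears to lie opposite the annotated strand, and the annotated one, described below, was lower. Cortex and muscle were at a log2 ratio of 0.09, and muscle was 6.66-fold above VAT. Both depended on the scaling of the libraries, since after scaling to an equal upper quartile cortex was 2.15-fold above muscle and muscle 2.08-fold above VAT. The muscle level was 94.1% of that in cortex. The neuron, astrocyte and Schwann cell values given for Atp1b2 stand beside this level too. Although Fxyd6 and Fxyd2 are annotated as neighbours on the same strand, they were highest in different tissues. Kidney, where Fxyd2 was highest, was among the lowest tissues for Fxyd6. The Fxyd6 locus on the annotated strand was also highest in cortex, at 7.99 FPKM, and had 0.221 in kidney.

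The Fxyd5/Fxyd7 locus combines dysadherin (Fxyd5), a regulator known from epithelia and from tumour cells, with Fxyd7, known as a regulator of the brain. It had 39.2 FPKM in SCAT, 16.3 in VAT, 14.3 in BAT, 13.4 in cortex, 9.09 in muscle, 6.87 in kidney and 4.27 in liver. SCAT stood 2.40-fold above VAT, or 1.69-fold after scaling to an equal upper quartile, and below that the neighbours in the order were close. The SCAT library also held all 4 lymphocyte markers, at a summed FPKM of 107 against 0.222 to 3.25 in the other tissues. It held all 4 pancreatic acinar markers too, at 91.8 against 0.290 to 8.77. Of the acinar markers, Cela1 had 11.5 in SCAT and 8.55 in kidney, and 3 reached 1 FPKM in VAT. The part of lymphocytes or acinar cells in the level of this locus was not tested.

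**Figure D1:**
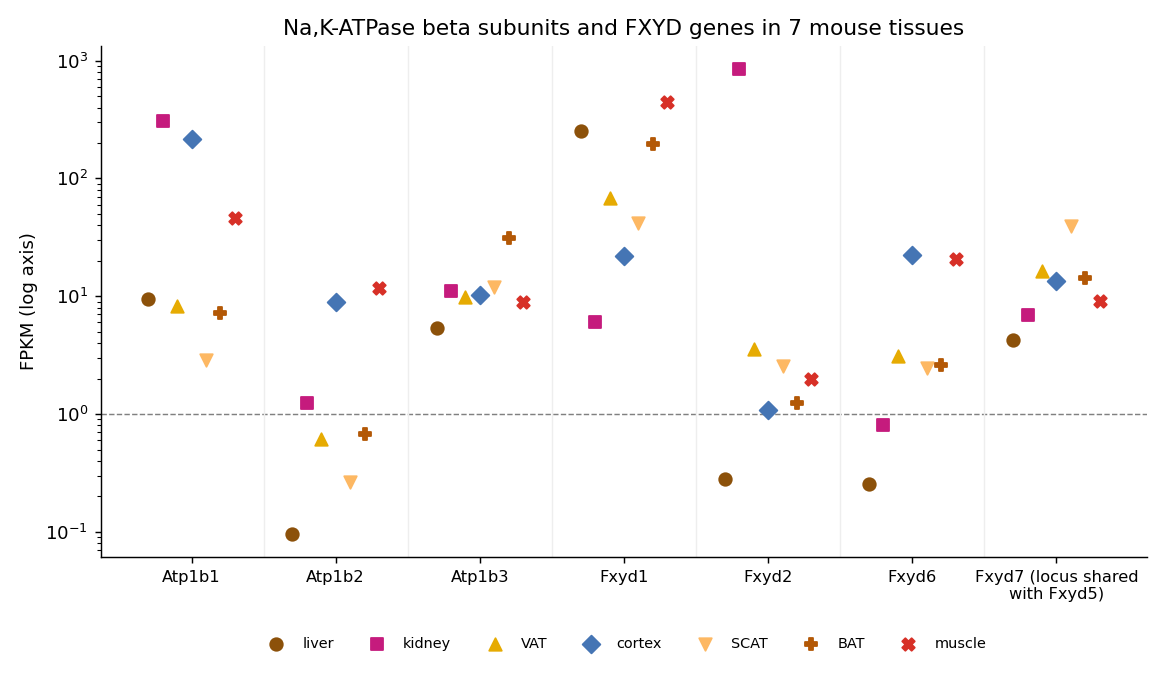
FPKM (log axis) of the 7 genes, with 1 point for each tissue and its single library; the dashed line marks 1 FPKM. Fxyd2 has 1 point far above the others (kidney, 846), Atp1b1, Atp1b2 and Fxyd6 each have 2 points above the others, and Atp1b3 and the Fxyd5/Fxyd7 locus have narrow ranges.

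Enrichment in a tissue required at least 1 FPKM there and a log2(FPKM + 0.1) that exceeded all other tissues by 2 or more, which is 4-fold. Of the 7 genes, 1 met this rule, Fxyd2 in kidney with a log2 ratio of 7.86, where 21.4% of the 14928 protein-coding genes met it in any tissue and 2.49% in kidney. Fxyd2 exceeded 99.4% of these genes in that ratio. The highest levels of the other 6 were shared with a second tissue or stood less far above it, with log2 ratios of 0.52 for Atp1b1, 0.41 for Atp1b2, 1.39 for Atp1b3, 0.84 for Fxyd1, 0.09 for Fxyd6 and 1.26 for the Fxyd5/Fxyd7 locus. The median of the 7 was 0.84 against 0.68 over all these genes. With 2-fold in place of 4-fold, 3 of the 7 were enriched, Fxyd2, Atp1b3 in BAT and the Fxyd5/Fxyd7 locus in SCAT, against 38.5% of all genes. After scaling to an equal upper quartile, 2 of the 7 met the 2-fold rule, Fxyd2 in kidney and Fxyd6 in cortex (log2 ratio 1.10), against 36.1% of all genes, and Atp1b3 (0.26) and the Fxyd5/Fxyd7 locus (0.75) no longer did.

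The range between tissues was wide for most of the genes. All 7 differed at least 4-fold between the highest and the lowest tissue, as did 70.0% of the expressed protein-coding genes, and 4 of 7 had at least 1 FPKM in all tissues, as did 52.5%. On the log2 scale the range was 11.11 for Fxyd2, 6.68 for Atp1b1, 6.20 for Fxyd1, 5.98 for Fxyd6, 5.93 for Atp1b2, 3.17 for the Fxyd5/Fxyd7 locus and 2.51 for Atp1b3. The median of the 7 was 5.98. Fxyd2 exceeded 98.8% of the expressed genes in its range, Atp1b1 89.0%, Fxyd1 86.6% and Atp1b3 41.5%.

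**Figure D2:**
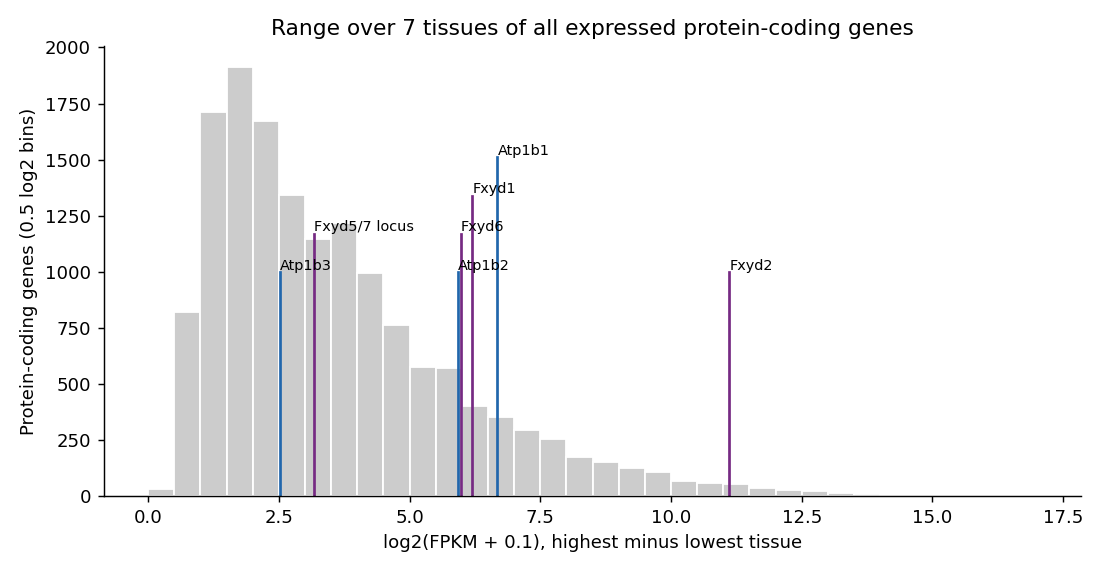
Histogram of the log2 range between the highest and the lowest tissue over 14928 protein-coding genes, in bins of 0.5, with beta subunits (blue) and FXYD genes (purple) as vertical lines whose heights only place the names. Atp1b3 lies left of the median of 2.99, a group of 4 genes lies between 5.93 and 6.68, and Fxyd2 lies at 11.11.

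Beta subunits replace each other in the pump, and FPKM is scaled to transcript length, so the share of each in the summed FPKM was computed. Atp1b1 held over 50% of the sum in 4 tissues and Atp1b3 in the other 3, the adipose tissues. The share of Atp1b1 was 96.1% in kidney, 91.8% in cortex, 69.0% in muscle, 63.1% in liver, 44.0% in VAT, 19.2% in SCAT and 18.2% in BAT. Atp1b3 held 80.0% in BAT, 79.0% in SCAT, 52.7% in VAT, 36.3% in liver, 13.3% in muscle, 4.37% in cortex and 3.49% in kidney. VAT was thus the most even of the adipose tissues, and BAT and SCAT had nearly the same shares. Atp1b2 held 17.7% in muscle, more than Atp1b3 there, and between 0.388% (kidney) and 3.82% (cortex) elsewhere.

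The shares and sums of FXYD genes cover Fxyd1, Fxyd2, Fxyd6 and the Fxyd5/Fxyd7 locus, and leave out Fxyd3 and Fxyd4. Fxyd3 had 5.02 FPKM in cortex, against 1.09 for Fxyd2, and Fxyd4 had 24.2 in kidney. Among the genes covered, Fxyd1 held 98.1% of the summed FPKM in liver, 93.3% in muscle, 91.5% in BAT and 74.6% in VAT, but 0.697% in kidney. Fxyd2 held 98.4% in kidney and at most 3.91% in any other tissue. Cortex was the most mixed, with 38.0% for Fxyd6, 37.3% for Fxyd1, 22.9% for the Fxyd5/Fxyd7 locus and 1.87% for Fxyd2. With the Fxyd6 locus on the annotated strand, Fxyd6 fell to 18.1% in cortex and Fxyd1 came first with 49.3%. In SCAT, Fxyd1 held 48.7% and the Fxyd5/Fxyd7 locus 45.5%. Leaving out that locus raised the share of Fxyd1 to 89.3% in SCAT, 91.0% in VAT and 48.4% in cortex.

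**Figure D3:**
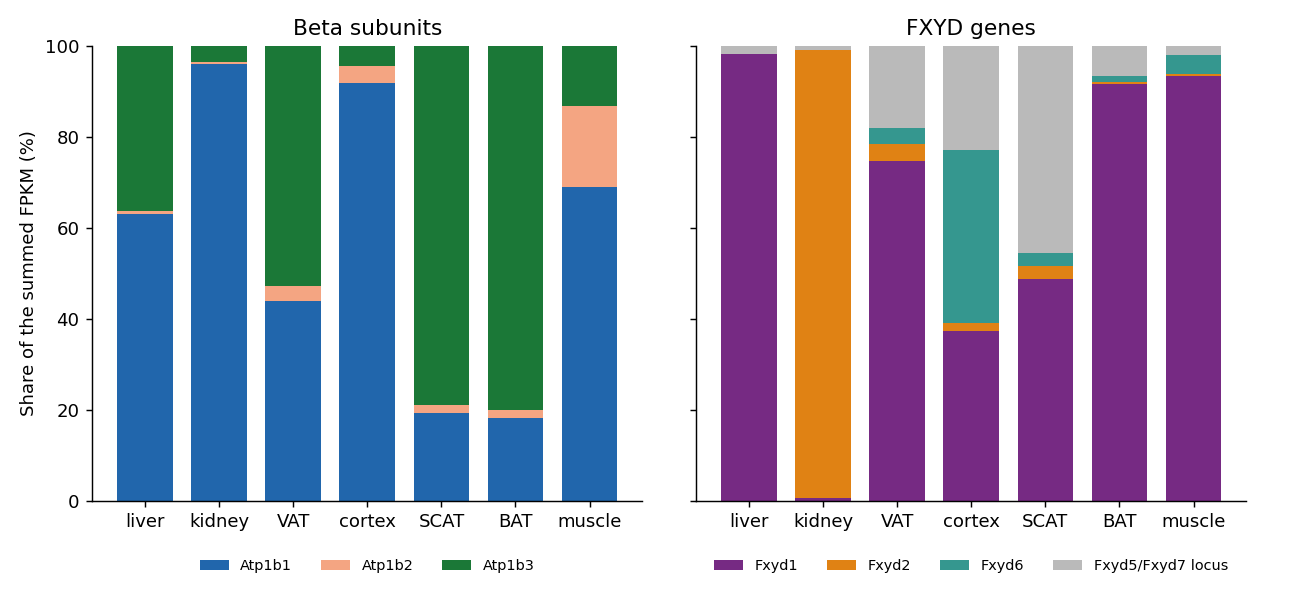
Share (%) of each gene in the summed FPKM of the beta subunits (left) and of the FXYD genes (right) by tissue, 1 library each. Atp1b1 fills most of kidney and cortex and Atp1b3 most of SCAT and BAT, and Fxyd2 fills kidney where Fxyd1 fills liver, BAT and muscle.

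The summed FPKM of the beta subunits was 318.5 in kidney, 233.3 in cortex, 66.9 in muscle, 39.2 in BAT, 18.7 in VAT, 15.0 in SCAT and 14.9 in liver. The FXYD genes summed to 860.1 in kidney, 479.8 in muscle, 255 in liver, 213.4 in BAT, 90.7 in VAT, 86.2 in SCAT and 58.5 in cortex. After scaling to an equal upper quartile, BAT and VAT changed places in both orders. The beta sums were then 39.2 in muscle, 35.0 in VAT and 27.7 in BAT, and the FXYD sums 280.9 in muscle, 169.6 in VAT and 150.8 in BAT. With and without this scaling, kidney was highest in both sums, whereas cortex was second for the beta subunits and lowest for the FXYD genes. FXYD over beta therefore ran from 0.251 in cortex to 17.1 in liver. These ratios compare RNA per length and not protein.

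**Figure D4:**
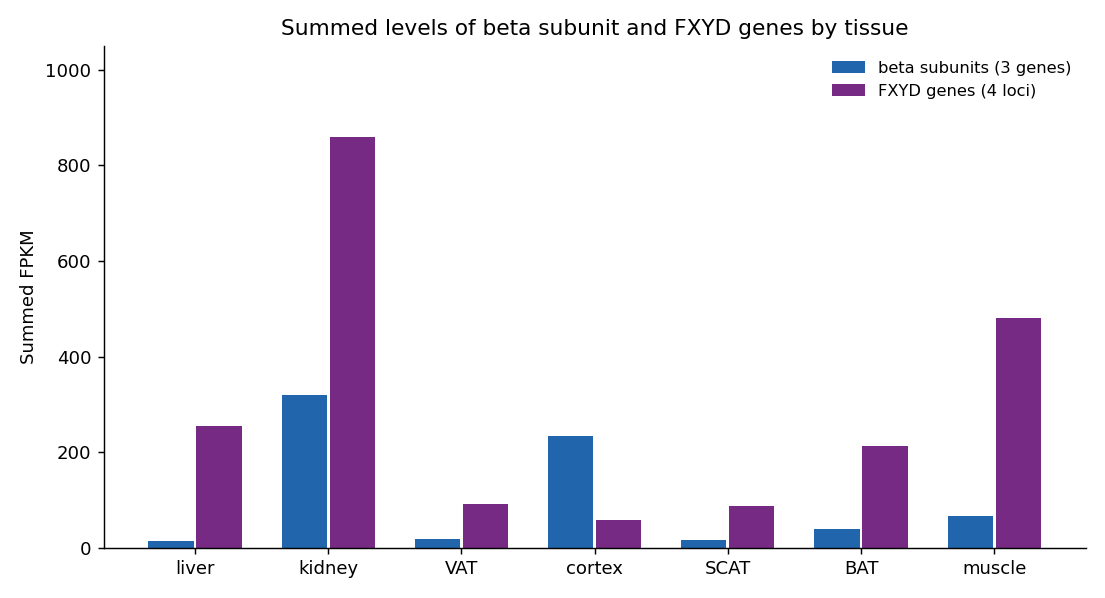
Summed FPKM of the 3 beta subunit genes (blue) and the 4 FXYD loci (purple) by tissue, 1 library each. Kidney has the tallest bar of each colour, and cortex is the tissue in which the beta bar is taller than the FXYD bar.

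The other sodium pump genes described here are Atp1b4 and the remaining FXYD genes, with Fxyd5 counted by the Fxyd5/Fxyd7 locus already described. Of these, 2 of the 4 with at least 1 FPKM were enriched, against 21.4% of all genes in any tissue, 2.49% in kidney and 3.38% in muscle. Atp1b4, which in mammals encodes a muscle protein outside the pump, had 4.94 FPKM in muscle, and Fxyd4, a regulator of the collecting duct, 24.2 in kidney. Fxyd3 was not enriched, with 5.81 FPKM in VAT and 5.02 in cortex, and Fxyd5 has no value apart from the locus it shares with Fxyd7.

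Of further genes around the pump, 2 of the 4 NKAIN genes, whose proteins bind Atp1b1, were enriched: Nkain2, with 41.4 FPKM in cortex, and Nkain3, with 4.19 in cortex, where 8.21% of all genes were enriched. Of 4 sodium entry and exchange genes with a value, 2 were enriched, the sodium-calcium exchangers Slc8a2 in cortex (8.48 FPKM) and Slc8a3 in muscle (21.5 FPKM), against 8.21% of all genes in cortex and 3.38% in muscle. The share of all genes enriched in any tissue was 21.4%. None of the 4 genes of mineralocorticoid control was enriched, and of the 3 H,K-ATPase genes only Atp4a, in a locus shared with Sbsn, reached 1 FPKM and could be called, and it was not enriched. Sgk1, a kinase that aldosterone induces, had 134 FPKM in muscle, 80.6 in BAT and 55.4 in VAT, and its lowest level in liver, at 21.5. After scaling to an equal upper quartile its highest level was in VAT, at 104, and Slc8a3 was no longer enriched in muscle. The loci used for Nkain2, Nkain3, Slc8a2, Slc8a3 and Atp1b4 lay opposite the annotated strand by the order of the loci.

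For each gene, the protein-coding genes with the most similar pattern were sought among 7415 with at least 10 FPKM, by Pearson's r of log2(FPKM + 0.1) over the 7 tissues, which ignores the size of the differences. With 7 points, high values arise easily, and the correlations are given as a description. Nearest to Atp1b1 was Nme7 (r = 0.99), which lies on the opposite strand and overlaps the end of Atp1b1 by 617 bases, and had an FPKM from 25.6% of that of Atp1b1 in cortex to 132.7% in SCAT. Next were Usp20 (0.97) and Pllp (0.96). Atp1b2 was nearest to Dctn1, a subunit of dynactin, Iqcj and Snx12 (all 0.99), and Atp1b3 to Prkaa1, a catalytic subunit of AMP-activated kinase (0.99), Smad2 (0.99) and Gipc1 (0.98).

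Fxyd1 had few genes near it, with Hspb8, a small heat shock protein (0.97), Optn (0.94) and Pfkfb1 (0.93). Fxyd2 was nearest to Ndrg1 (0.99), which had 720.6 FPKM in kidney, Paqr5 and Trabd2b (both 0.98). Fxyd6 was nearest to Camk2d, a calmodulin-dependent kinase (0.99), Slf1 and Arhgap20 (both 0.98), which like it had their 2 highest levels in cortex and muscle as deposited. The Fxyd5/Fxyd7 locus was nearest to Tmsb10, which binds actin (0.97), and to the replication-dependent histone genes Hist1h1b (0.97) and Hist1h2bm (0.96), all highest in SCAT.

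Several of these names stand for more than 1 locus of the table, and the values above are those of the locus with the highest level. The strand, read from the order of the loci in the table, was the annotated one for the loci used of Atp1b1, Atp1b2, Atp1b3, Fxyd1, Fxyd2 and the Fxyd5/Fxyd7 locus. For Fxyd6 it was the opposite strand. Its locus on the annotated strand had 7.99 FPKM in cortex, 7.11 in muscle, 1.12 in VAT, 1.12 in BAT, 0.810 in SCAT, 0.221 in kidney and 0.106 in liver. This was 27.4% to 43.2% of the locus used, and cortex and muscle were the 2 highest on both strands.

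Loci opposite Atp1b2 and Atp1b3 had 22.7% to 40.1% and 18.6% to 33.2% of the FPKM of the locus used. The only other locus with the name Fxyd7 lies on the opposite strand and ranged from 3.66 FPKM in muscle to 0.112 in kidney. Its order of tissues was that of its neighbour Fxyd1, of which it held 0.818% to 1.86%, and not that of the Fxyd5/Fxyd7 locus. No value of Fxyd7 alone on its own strand can be given.

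**Figure D5:**
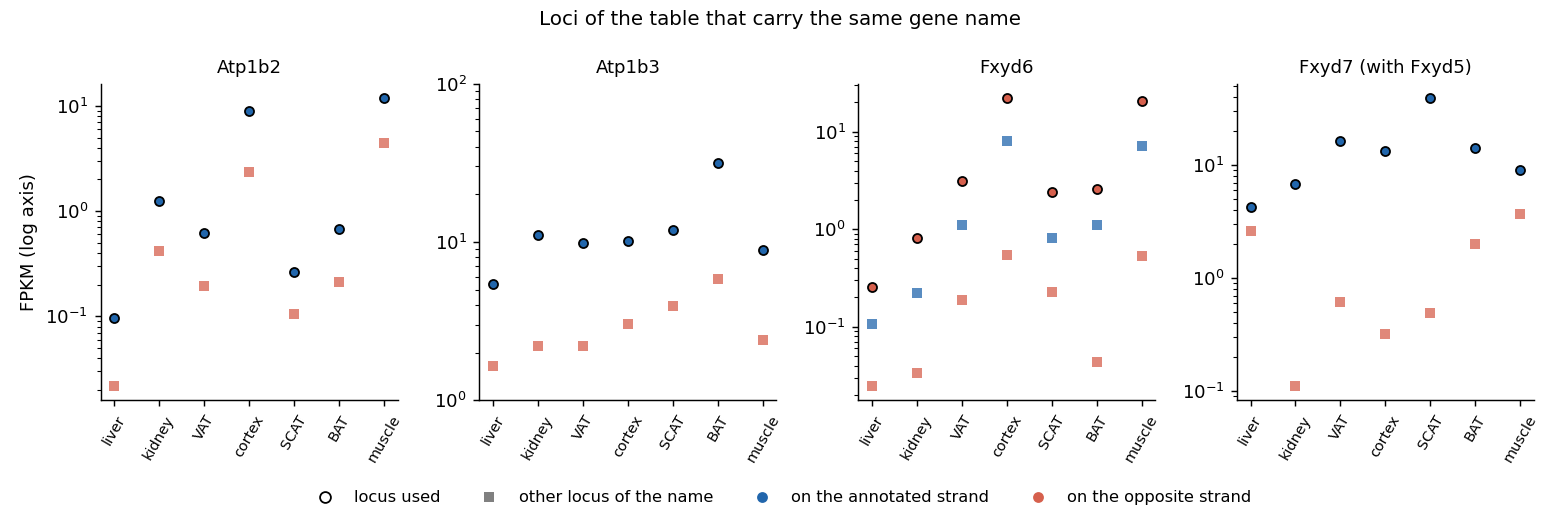
FPKM (log axis) by tissue of the loci that carry the names Atp1b2, Atp1b3, Fxyd6 and Fxyd7, on the annotated strand (blue) or the opposite one (red); outlined circles are the loci used and squares the other loci. The points of the different loci run in parallel for Atp1b2 and Fxyd6, the locus used for Fxyd6 is the opposite one, and the squares of Fxyd7 do not follow the circles.

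The labelled tissues were checked against their markers. Every tissue held its own markers at 1 FPKM or more, except that Alb in liver and Myh4 in muscle were listed at 0 with the status LOWDATA and Acta1 failed in the table. VAT held all 3 epididymis markers, at a summed FPKM of 2639 against at most 1.99 elsewhere. It also held all 5 of mesothelium and epithelium, at 26.9 against 0.117 to 15.9 elsewhere. Of these 5, Epcam had 11.9 in VAT and 14.3 in kidney. The part of epididymis, mesothelium or epithelium in the VAT values of Fxyd2 and the other genes was not tested.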

How the data were processed

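Per the paper's methods and the submitters' processing notes, reads of 2 × 101 bases were aligned to GRCm38 with STAR 2.6.0c after removal of rRNA reads with Bowtie2 2.2.9, transcripts were assembled with Cufflinks 2.2.1 and tissues compared with cuffdiff. The authors deposited FPKM for 94339 loci in 21 pairwise comparisons, with log2 fold changes, a test score, p-values and q-values of the authors' comparisons, none of which was used. A tissue's FPKM was the same in its 6 comparisons. Depth, and hence precision, is unknown.

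Loci with the status FAIL (151) were dropped, LOWDATA zeros were missing, loci with several names were kept under each, and of several loci the highest was taken. Of 50226 names, 91.9% matched GENCODE M21. Strand was inferred from the sequence in which loci are listed, and matched the annotation for 75.3% of 61893 locus and name combinations. FPKM was compared as log2(FPKM + 0.1), which understates differences of low values, and without replicates no test was made. The genes and lists were chosen with earlier results of these data known. Named are the 7 genes, genes of the lists that were enriched or where 5 or fewer were, and the 3 genes most like each; other genes were chosen after their values were seen. Some genes of the pump are not reported here. Alternatives covered the pseudocount, scaling, thresholds, choice of locus, status and correlation. Python 3.11.15, pandas 2.3.3, NumPy 2.4.6 and matplotlib 3.10.9 were used.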

Additional observations from a re-analysis of the deposited data

How the results depend on the processing

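No paired analysis was possible because the tissues are single libraries that no test compared. Values were counted as moved when they changed over 1.5-fold. With a 2-fold rule 3 of the 7 genes were enriched in a tissue in place of 1, where 38.5% of all genes met that rule and 21.4% the 4-fold one, and under the 12 alternatives with a 4-fold or 8-fold rule the number stayed at 1. Scaling to the median ratio shifted a library by at most 0.15 on the log2 scale and moved no sum, highest tissue or log2 ratio by that measure. Scaling to an equal upper quartile shifted VAT by 0.90 and muscle by -0.77. The sum in VAT then rose to 35.0 for the beta subunits and 169.6 for the FXYD genes, and that in muscle fell to 39.2 and 280.9, and VAT passed BAT in both. Under it Atp1b2 was highest in cortex and not in muscle, and the log2 ratio of the highest to the second tissue was 0.26 for Atp1b3, 0.16 for Fxyd1, 6.80 for Fxyd2 and 1.10 for Fxyd6. With loci of several names left out, Fxyd1 held 88.4% of the FXYD sum in SCAT, the sum there was 47.5, and the one locus still carrying the name Fxyd7, on the opposite strand, was highest in muscle. In alternatives added after seeing the data, Fxyd1 held 89.3% in SCAT without the Fxyd5/Fxyd7 locus, and 2 genes met the 2-fold rule after scaling to an equal upper quartile. Of 217 shares recomputed, 21 moved, among them those of Fxyd6 on the annotated strand in all tissues. The genes of most similar pattern depended on the measure, since Spearman's rho moved the choice for all 7 genes, and a pseudocount of 1 that for Atp1b2 and Fxyd6, with 1 of 3 genes kept for each. The depth of the libraries, which would limit low values such as those of Atp1b2 and Fxyd6 in liver, is unknown.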
